A study of Bos taurus with 24 samples.

Results

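The passage of a follicle past the early antral stage was followed in 2 compartments of the bovine ovary, and the genes whose early-to-late change differed between those compartments are described here. Of 24 RNA sequencing libraries of bovine granulosa cells, 20 come from antral follicles, with 5 libraries each of cumulus cells from late antral follicles (late_CC), cumulus cells from early antral follicles (early_CC), mural granulosa cells from late antral follicles (late_MGC) and mural granulosa cells from early antral follicles (early_MGC). The interaction of a gene is its log2 change in cumulus cells, late_CC against early_CC, minus its log2 change in mural cells, late_MGC against early_MGC. A positive value means that late cumulus cells stood higher, relative to early ones, than the mural step alone would give; interactions and steps are given as log2 values ± SE. All genes enter: 13668 of the 27607 genes in the deposited table had enough counts to be tested. The labels name Bos taurus, the cell type, the follicle stage and total RNA turned into cDNA with a low-input kit, and give no treatment, follicle diameter, animal or pooling. Since nothing says that the 5 libraries of a group came from separate animals, p-values measure only the spread between these samples.

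Granulosa cells are the somatic cells that surround the oocyte. When fluid gathers into an antrum they part into cumulus cells, which stay in contact with the oocyte through gap junctions and through transzonal projections, and mural cells, which line the follicle wall and make most of the oestradiol. The oocyte sends growth factors of the TGF-beta family to the cumulus cells and lacks much of glycolysis and cholesterol synthesis, which cumulus cells carry out for it. The study set out to ask whether the ability of granulosa cells to form such projections goes with changes in their transcriptome.

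The libraries hold 8379801 to 31762400 counts, and levels are given as CPM, counts per 1000000 counts of the same library. The 7 granulosa markers summed to 2301 to 16934 CPM in late_CC, 2210.0 to 2833 in early_CC, 369 to 6364 in late_MGC and 850.4 to 1287 in early_MGC. The library late_MGC 3, the third of late_MGC in column order, stands farthest apart and late_CC 3 next. Late_MGC 3 had the lowest granulosa marker sum and correlated with its own group at a mean Pearson's r of 0.852 over log2 levels, against 0.911 for late_CC 3 and 0.941 or more for the other 18. It also held 5016 CPM of surface epithelium markers and 2727 CPM of theca and stroma markers, where the other 4 late_MGC libraries reached at most 290.5 and 435 CPM. In late_CC 3 the granulosa markers summed to 2301 CPM, against 8923 to 16934 in the other late_CC libraries. Counts of called interactions over all genes and over the pathway lists are given with all 20 libraries and without late_MGC 3. Where the called interaction of a named gene is given for all 20 libraries alone, it kept its sign and call without late_MGC 3 and moved by less than 1.5 times.

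Stage and compartment interacted for a large share of the transcriptome, and the larger step was in most cases that of the cumulus cells. With edgeR's quasi-likelihood test and a Benjamini-Hochberg adjusted p under 0.05, 4673 of 13668 genes (34.2%) had a called interaction, 2396 positive and 2277 negative. Without late_MGC 3, 5557 of 13800 genes (40.3%) were called. In both fits and in the same direction 4476 genes (32.7%) were called, 193 only with all 20 libraries and 1054 only without late_MGC 3, and 0 genes were called with opposite signs. Late_CC differed from early_CC in 6541 genes (47.9%) and late_MGC from early_MGC in 2624 (19.2%). The median interaction over all genes tested was 0.09, and 0.16 without late_MGC 3.

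Among the 4476 genes called in both fits, 1546 rose in late_CC and 1516 fell in late_CC with no called change in late_MGC. The mural step alone was called for 226 genes higher and 372 genes lower in late_MGC than in early_MGC. Both steps were called with opposite signs for 189 genes that rose in cumulus and fell in mural cells and for 242 genes that fell in cumulus and rose in mural cells. The absolute step was larger in cumulus cells for 3496 of the 4476 genes (78.1%). These are bulk samples, in which fewer cells of a kind and less RNA per cell cannot be told apart.

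**Figure D1:**
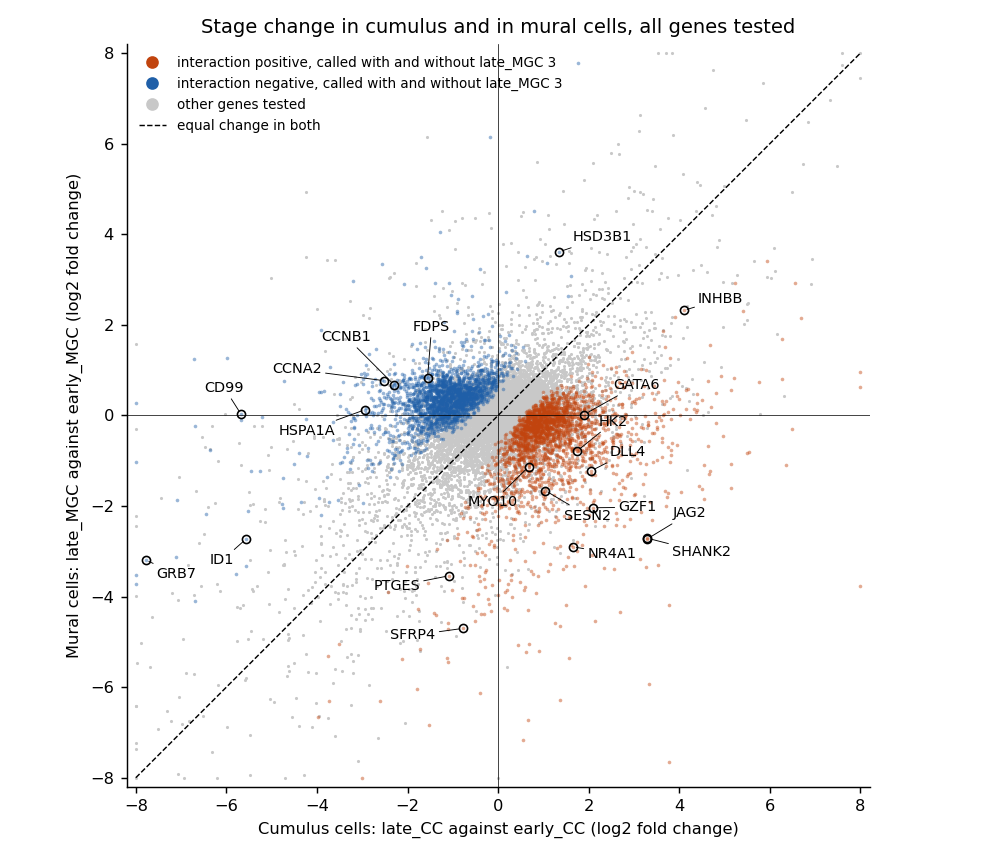
Log2 fold change of late_CC against early_CC (x axis) and of late_MGC against early_MGC (y axis) for the 13668 genes tested; genes called positive or negative with and without late_MGC 3 are coloured, the dashed line marks equal steps, and 27 genes beyond 8 on either axis are drawn at the edge. Most coloured genes lie along the horizontal line of no mural change, NR4A1 and SHANK2 lie to the lower right, and CCNA2, CCNB1 and FDPS to the upper left.

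The interaction ran with the length of a gene's exons, and this touches every gene group below. In 8 bins of about equal size by summed exon length, the median interaction was -0.44 in the shortest bin (up to 910 bases), -0.61 in the next, -0.29, -0.11, 0.15, 0.30 and 0.44 in those that follow, and 0.74 in the longest (4646 bases and more). The trend lay in the cumulus step, whose bin medians ran between -0.67 and 0.64, while those of the mural step stayed between -0.08 and 0.05. The mean exon length weighted by counts was 2166 to 2491 bases in late_CC libraries, 1938 to 1994 in early_CC, 1791 to 2028 in late_MGC and 1807 to 2074 in early_MGC, so late_CC overlapped no other group. With offsets that remove each library's length curve, 4034 genes (29.5%) had a called interaction, and 3161 of the 4476 genes called in both fits (70.6%) kept their call and direction. Whether the trend lies in the cells or in the RNA and libraries was not tested, and where the correction on all 20 libraries ended or gave a call below, or moved a called interaction by over 1.5 times, this is said beside the gene. In the fit with the correction and without late_MGC 3, the calls of SLC16A3 (2.71, adjusted p = 0.050), ID1 (-2.40, adjusted p = 0.052) and ATP6AP1L (-1.54, adjusted p = 0.081) were lost as well, and GREM1 gained one (-0.93, adjusted p = 0.015). CDH2, called without late_MGC 3 but not with all 20 libraries, lost its call there too (0.21, adjusted p = 0.59).

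**Figure D2:**
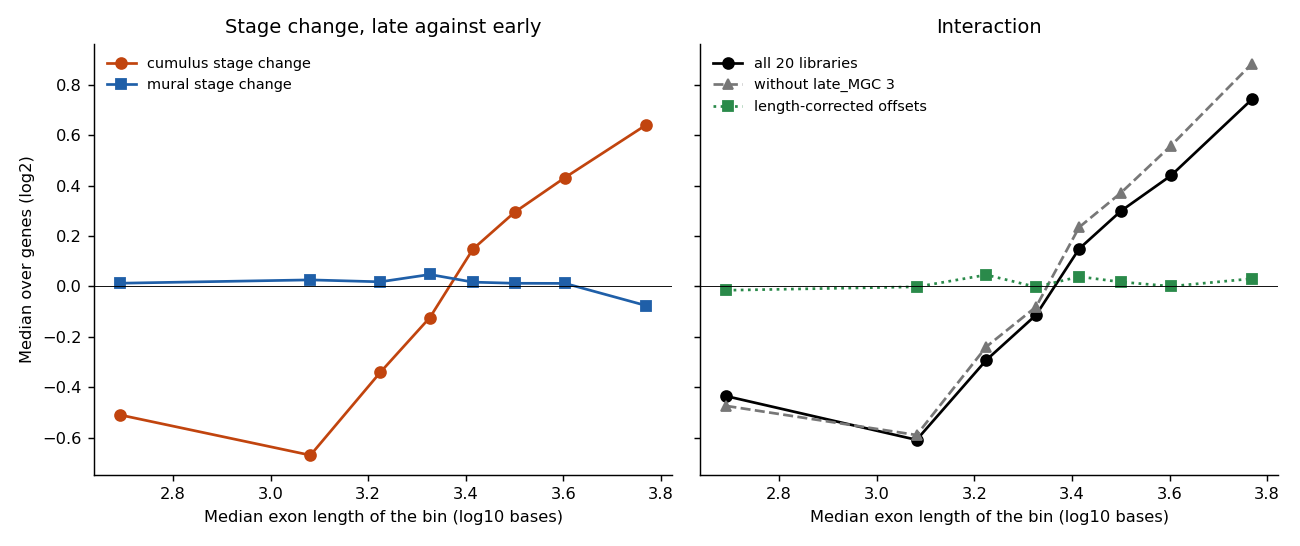
Median log2 stage change (left) and median interaction (right) in 8 bins of genes by exon length, against the median exon length of the bin (log10 bases). The cumulus line climbs with length and the mural line stays near 0; the interaction climbs with and without late_MGC 3 and lies within 0.05 of 0 in every bin with length-corrected offsets.

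Genes of the cell cycle fell in late cumulus cells, and in mural cells the number that passed the test turned on late_MGC 3. Of 37 genes of DNA replication and mitosis tested, 31 had a negative interaction and 0 a positive one, with a median of -1.89 (background 16.7% negative, median 0.09). In late_CC, 33 of the 37 fell and 0 rose (background 23.4% negative), with a median step of -1.57. The mural step had a median of 0.39, with RRM1 and CDC6 called up and E2F1 down (2 and 1 genes, background 8.75% positive and 10.4% negative). Without late_MGC 3 the mural step was called up for 15 of the 37 and down for 0, with a median of 0.60. Over all 13800 genes of that fit, the mural step was called up for 1465 and down for 1960. Without late_MGC 3 the interaction was negative for 36 of 37 (background 18.2%), and with length-corrected offsets for 35 of 37 (background 15.7%). With 1 library left out at a time, 28 to 36 genes were negative and 0 positive.

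CCNA2 (cyclin A2, chr6:3425574-3431686 in ARS-UCD1.2), a partner of the kinases that drive S phase and entry into mitosis, had 10.6, 9.97, 3.67, 8.40 and 6.34 CPM in the 5 late_CC libraries and 47.1, 48.4, 50.6, 28.6 and 51.8 CPM in early_CC. In mural cells it had 53.8, 34.9, 15.5, 47.5 and 35.6 CPM in late_MGC and 29.6, 20.3, 35.0, 12.6 and 17.3 CPM in early_MGC. Every late_CC library was below every early_CC library, whereas the mural groups overlapped and late_MGC 3 was the lowest of its group. The interaction of CCNA2 was -3.29 ± 0.48 (adjusted p = 6.3e-05), and -3.50 (adjusted p = 3.4e-06) without late_MGC 3. AURKB (chr19:27835752-27840596), a kinase of chromosome segregation, had 27.6, 27.02, 9.83, 28.997 and 20.4 CPM in late_CC and 167, 149, 118, 83.9 and 174 CPM in early_CC. Its mural levels were 122, 57.2, 20.4, 83.0 and 81.0 CPM in late_MGC and 73.5, 68.5, 84.2, 39.9 and 45.8 CPM in early_MGC. Again the cumulus groups were apart and the mural groups overlapped, and the interaction was -2.90 ± 0.54 (adjusted p = 4.6e-04), or -3.15 (adjusted p = 9.9e-06) without late_MGC 3.

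Of the others, CCNB1 (cyclin B1) had an interaction of -2.99 ± 0.60 (adjusted p = 8.6e-04) and CDC20, an activator of the anaphase-promoting complex, -2.89 ± 0.61 (adjusted p = 0.0013). Genes of replication took the same direction: PCNA, the sliding clamp of DNA polymerase, had -2.87 ± 0.50 (adjusted p = 2.3e-04), and the 6 genes of the MCM helicase ranged from -1.496 for MCM2 to -2.35 for MCM5, all called. MKI67, the proliferation marker, was lower in late_CC (-1.01 ± 0.40, adjusted p = 0.041), and its interaction of -1.36 ± 0.56 was not called with all 20 libraries (adjusted p = 0.065) but was called without late_MGC 3, at -1.64 (adjusted p = 0.0014), and with length-corrected offsets, at -2.49 (adjusted p = 0.0055).

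**Figure D3:**
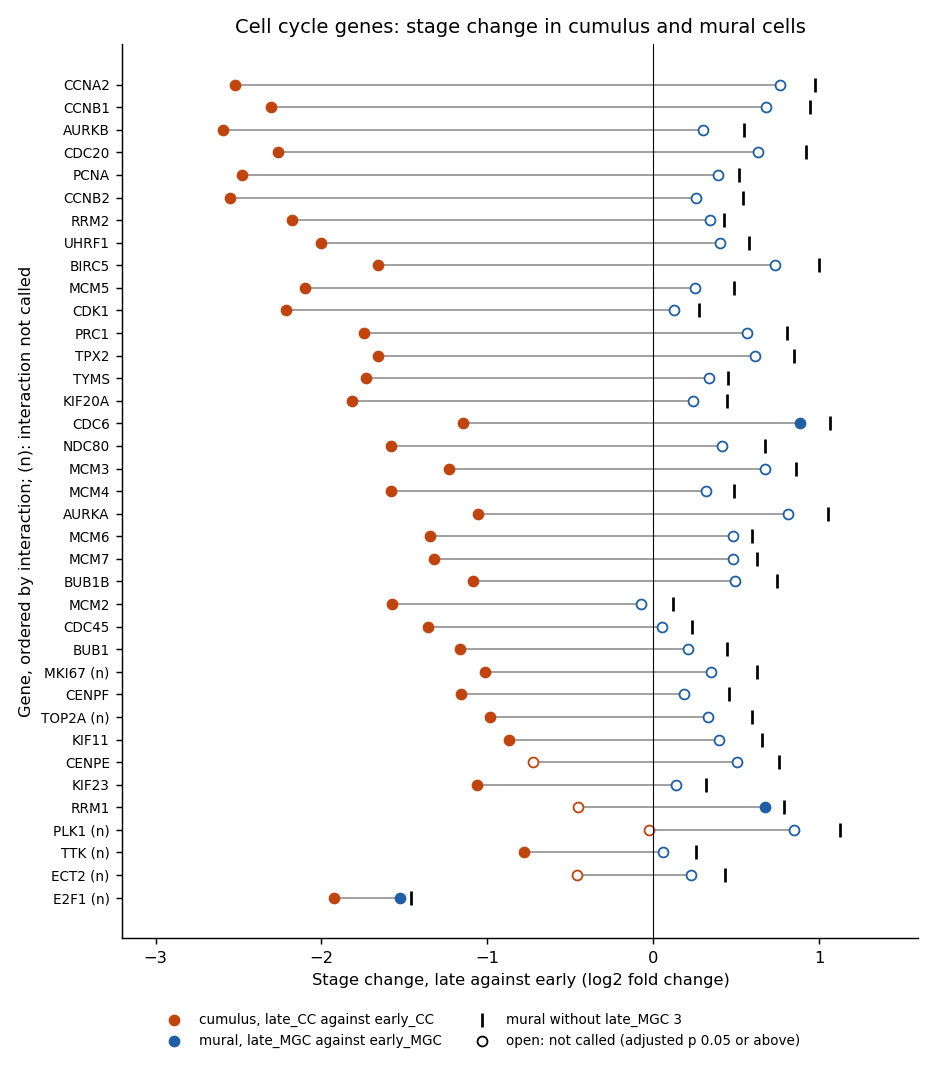
Log2 stage change of the 37 cell cycle genes tested, in cumulus cells and in mural cells, with filled points for called changes and a bar for the mural change without late_MGC 3. The cumulus points lie left of 0 for all 37 genes and the mural points lie right of 0 for all but MCM2 and E2F1.

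Several genes of the p53 response and of cell cycle arrest had a positive interaction. Of 17 tested, 6 had a positive and 1 a negative interaction (background 17.5% and 16.7%), with a median of 0.73, and 8 and 0 without late_MGC 3 (background 22% and 18.2%); with length-corrected offsets the count was 8 and 1 (background 13.8% and 15.7%) and the median 0.11. The 6 were SESN2, CDKN1B, SESN1, FAS, CCNG1 and MDM2, and all 6 were also called with length-corrected offsets, MDM2 with 0.53 in place of 0.85. SESN2 (sestrin 2, chr2:125113996-125132377), which restrains mTORC1 when amino acids are short or cells are stressed, had 54.2, 65.1, 81.5, 65.8 and 50.6 CPM in late_CC and 25.2, 34.0, 30.8, 37.7 and 28.6 CPM in early_CC. In mural cells it had 5.70, 6.22, 6.32, 3.18 and 6.03 CPM in late_MGC and 16.5, 22.8, 12.2, 18.02 and 20.97 CPM in early_MGC. The late group was wholly above the early one in cumulus cells and wholly below it in mural cells. Its interaction was 2.71 ± 0.28 (adjusted p = 8.8e-06), with a cumulus step of 1.04 ± 0.20 (adjusted p = 2.1e-04) and a mural step of -1.66 ± 0.20 (adjusted p = 1.2e-05), and 2.72 without late_MGC 3.

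CDKN1B (p27, chr5:97104351-97109627), an inhibitor of cyclin-dependent kinases, had 72.1, 90.2, 34.1, 87.1 and 87.4 CPM in late_CC and 27.2, 29.4, 39.1, 33.5 and 23.2 CPM in early_CC. Mural levels of CDKN1B were 22.7, 32.0, 38.8, 26.8 and 22.3 CPM in late_MGC and 37.7, 40.6, 28.3, 36.3 and 39.6 CPM in early_MGC. All late_CC libraries but late_CC 3 were above early_CC, and the mural groups overlapped. Its interaction was 1.61 ± 0.29 (adjusted p = 3.4e-04), and 1.71 (adjusted p = 1.1e-04) without late_MGC 3. For SESN1 (1.39 ± 0.38, adjusted p = 0.0071) the step lay in mural cells, where it fell by 1.49 (adjusted p = 6.1e-04), and FAS, a death receptor, had 1.12 ± 0.28 (adjusted p = 0.0044).

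Immediate early genes, which respond within minutes to growth factors, hormones and stress, were among those that fell in late mural cells. Of 23 immediate early and heat shock genes tested, 5 had a positive interaction (NR4A1, ZFP36, DUSP1, JUND and MYC) and 3 a negative one (HSPA1A, HSPA8 and HSP90AA1), counts near the background 17.5% and 16.7%. The median was 1.01, and without late_MGC 3 the count was 11 positive and 3 negative of 25 (background 22% and 18.2%). The mural step was called for 10 genes down and 1 up (background 10.4% and 8.75%), with a median of -1.98, against 7 down and 3 up in cumulus cells (background 23.4% and 24.4%). Without late_MGC 3 the mural step was called for 14 genes down and 0 up of 25, beside 1960 down and 1465 up of all 13800 genes.

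NR4A1 (chr5:27820352-27839685), an orphan nuclear receptor induced by gonadotrophin signalling, had 86.3, 144, 109, 662 and 244 CPM in late_CC and 56.9, 64.5, 104.8, 86.4 and 73.5 CPM in early_CC. In mural cells it stood at 6.68, 4.35, 11.6, 2.58 and 4.03 CPM in late_MGC and 29.5, 62.5, 37.9, 8.35 and 100.1 CPM in early_MGC. The 2 cumulus groups overlapped at their edges, and in mural cells late_MGC 3 was above the lowest early_MGC library. The interaction of NR4A1 was 4.55 ± 0.78 (adjusted p = 2.8e-04), made up of a cumulus step of 1.65 ± 0.54 (adjusted p = 0.016) and a mural step of -2.90 ± 0.57 (adjusted p = 0.0016); without late_MGC 3 it was 4.88 (adjusted p = 1.6e-04). ZFP36 (chr18:49101057-49104540), which destabilises mRNAs with AU-rich elements, had 86.3, 169, 171, 406 and 239 CPM in late_CC and 65.5, 89.2, 145, 90.4 and 189 CPM in early_CC. Mural levels of ZFP36 were 47.4, 12.03, 50.6, 10.3 and 12.3 CPM in late_MGC and 92.9, 114, 69.5, 38.1 and 341 CPM in early_MGC. Late_MGC 1 and 3 stood above the other late_MGC libraries and overlapped early_MGC. Its interaction was 3.02 ± 0.77 (adjusted p = 0.0057), or 3.31 (adjusted p = 0.0035) without late_MGC 3, and its cumulus step of 0.88 ± 0.54 (adjusted p = 0.18) was not called.

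DUSP1, a phosphatase of MAP kinases, had 92.1, 42.5, 291, 13.8 and 51.0 CPM in late_MGC and 298, 392, 273, 172 and 926 CPM in early_MGC, where late_MGC 3 was the highest of its group. Its interaction of 2.17 ± 0.80 (adjusted p = 0.042) was lost in 15 of the 20 fits that left out 1 library and was 3.02 (adjusted p = 0.0014) without late_MGC 3. JUND, a component of the AP-1 factor, had 1.45 ± 0.42 (adjusted p = 0.011). MYC, a growth regulator, rose in late_CC (1.21, adjusted p = 5.2e-04) and had an interaction of 1.01 ± 0.35 (adjusted p = 0.031), called in 11 of those 20 fits, at 0.56 without late_CC 3, and not with length-corrected offsets (0.87).

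The heat shock genes went the other way. HSPA1A (chr23:27520317-27522790), an inducible chaperone of the HSP70 family, had 34.9, 41.8, 35.4, 58.1 and 53.3 CPM in late_CC and 439, 493, 144, 341 and 293 CPM in early_CC. Its mural levels were 331, 395, 45.6, 606 and 526 CPM in late_MGC and 466, 355, 329, 230.2 and 461 CPM in early_MGC. Every late_CC library was below every early_CC library, and late_MGC 3 was far below the rest of its group. The interaction was -3.06 ± 0.61 (adjusted p = 8.7e-04), and -3.35 (adjusted p = 2.0e-06) without late_MGC 3. HSPA8 had -1.52 ± 0.28 (adjusted p = 3.2e-04) and HSP90AA1 -1.2004 ± 0.26 (adjusted p = 0.0017), the second at -1.89 with length-corrected offsets. HSP70 genes have near-identical copies, so the share of HSPA1A itself is uncertain.

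**Figure D4:**
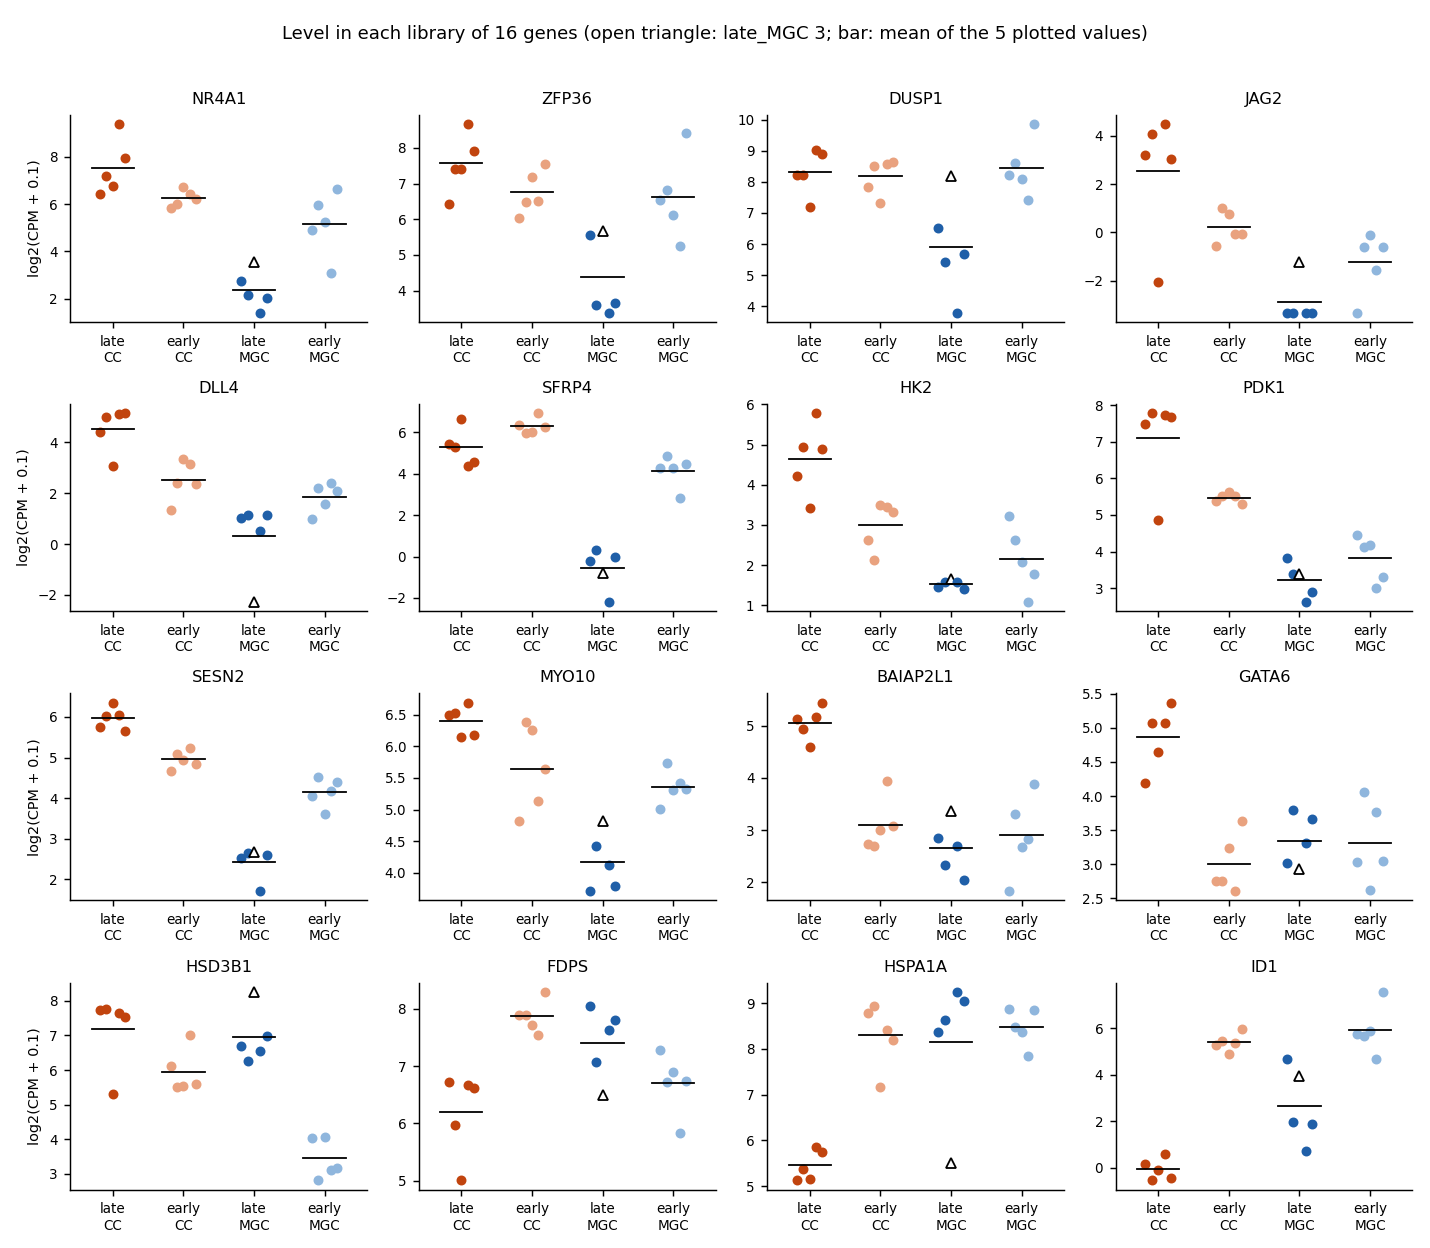
Level of 16 genes in each of the 20 antral libraries, as log2(CPM + 0.1), with late_CC, early_CC, late_MGC and early_MGC from left to right; the bar is the mean of the 5 plotted values and the open triangle is late_MGC 3. For NR4A1, SESN2 and MYO10 the late group is the higher one in cumulus cells and the lower one in mural cells, and for HSPA1A and ID1 every late_CC library lies below every early_CC library.

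Of 20 genes of glucose use tested, 4 had a positive interaction (HK2, PDK1, SLC16A3 and PFKM) and 1 a negative one (LDHB), with a median of 0.22. The count of 4 is close to the background of 17.5%, and without late_MGC 3 it was 7 positive and 1 negative (background 22% and 18.2%). HK2 (hexokinase 2, chr11:9743172-9810098), which takes the first step of glycolysis, had 18.5, 30.7, 10.6, 54.6 and 29.7 CPM in late_CC and 6.08, 4.24, 11.3, 10.9 and 9.84 CPM in early_CC. In mural cells HK2 had 2.64, 2.90, 3.05, 2.88 and 2.56 CPM in late_MGC and 9.26, 6.08, 4.13, 2.03 and 3.36 CPM in early_MGC. Among cumulus cells, late_CC 3 alone lay within the early_CC range, and the mural groups overlapped. Its interaction was 2.53 ± 0.53 (adjusted p = 0.0011), or 2.53 without late_MGC 3, and 2.12 (adjusted p = 0.0056) with length-corrected offsets.

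PDK1 (chr2:24026650-24069014), a kinase that inhibits pyruvate dehydrogenase, had 181, 219, 28.8, 212 and 203 CPM in late_CC and 41.3, 45.9, 49.8, 46.1 and 39.5 CPM in early_CC. Mural cells had 13.9, 10.4, 10.3, 6.07 and 7.31 CPM of PDK1 in late_MGC and 21.98, 17.5, 17.9, 7.88 and 9.83 CPM in early_MGC. Apart from late_CC 3, which was below early_CC, the late cumulus libraries stood far above the early ones, and the mural groups overlapped. The interaction was 2.51 ± 0.54 (adjusted p = 0.0015). SLC16A3, the lactate exporter MCT4, showed the same split of late_CC 3, at 10.2 CPM against 192 to 291 CPM in the other late_CC libraries and 35.8 to 61.4 CPM in early_CC. Its interaction of 2.97 ± 0.99 (adjusted p = 0.027) lost its call without early_MGC 1 (2.48), late_MGC 4 (2.73) or late_MGC 5 (2.72). PFKM, a phosphofructokinase, had 0.97 ± 0.31 (adjusted p = 0.021), lost in 2 of the 20 fits that left out 1 library. LDHB, a lactate dehydrogenase subunit, had -0.71 ± 0.27 (adjusted p = 0.048), lost in 15 of them. Neither was called with length-corrected offsets (0.70 and -0.48).

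JAG2 and DLL4, ligands of the Notch pathway through which neighbouring cells signal, rose in late cumulus cells. JAG2 (chr21:69505932-69519541) had 9.22, 16.95, 0.138, 22.2 and 8.10 CPM in late_CC and 0.567, 1.89, 1.58, 0.862 and 0.843 CPM in early_CC. It was near or at 0 in mural cells, with 0, 0, 0.321, 0 and 0 CPM in late_MGC and 0, 0.560, 0.839, 0.239 and 0.559 CPM in early_MGC. Only late_CC 3 did not share the high cumulus level. The fitted interaction of JAG2 was 6.02 ± 1.42 (adjusted p = 0.0031); without late_MGC 3 the late_MGC group holds no count, so its fitted 9.48 is no bound. DLL4 (chr10:36464520-36473693) had 20.9, 31.6, 8.31, 34.7 and 35.1 CPM in late_CC and 2.42, 5.15, 9.97, 8.75 and 5.02 CPM in early_CC. In mural cells DLL4 had 1.91, 2.12, 0.107, 1.32 and 2.09 CPM in late_MGC and 1.85, 4.55, 2.88, 5.25 and 4.19 CPM in early_MGC. Late_CC 3 overlapped early_CC and the mural groups overlapped as well. Its interaction was 3.28 ± 0.72 (adjusted p = 0.0017), and 2.96 (adjusted p = 2.6e-04) without late_MGC 3. These 2 were the called members of 10 tested, with 0 negative (background 17.5% and 16.7%) and a median of -0.25; without late_MGC 3 the pathway had 5 positive and 2 negative genes (background 22% and 18.2%), and with length-corrected offsets 3 and 0 (background 13.8% and 15.7%).

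The Wnt list had 4 positive members (SFRP4, SFRP1, TCF7L2 and AXIN1) and 1 negative (TCF7) of 18 tested, the positive count being near the background of 17.5% (16.7% for negative ones), with a median of 0.29. It was 4 and 1 of 19 without late_MGC 3 (background 22% and 18.2%) and 3 and 1 with length-corrected offsets (background 13.8% and 15.7%). SFRP4 (chr4:49731840-49742113), a secreted antagonist of Wnt ligands, had 42.6, 39.6, 101, 20.7 and 23.7 CPM in late_CC and 82.3, 62.3, 64.9, 120.0 and 75.8 CPM in early_CC. It nearly vanished from late mural cells, with 0.765, 1.15, 0.482, 0.120 and 0.901 CPM in late_MGC against 19.4, 29.2, 19.3, 6.92 and 21.7 CPM in early_MGC. The mural groups did not overlap and the cumulus groups did. The cumulus step of -0.78 ± 0.42 (adjusted p = 0.13) was not called. The mural step was -4.70 ± 0.52 (adjusted p = 5.6e-06) and the interaction 3.92 ± 0.65 (adjusted p = 2.0e-04), or 3.79 (adjusted p = 2.9e-04) without late_MGC 3. TCF7L2 (chr26:33466276-33668370), a transcription factor at the end of the pathway, had 46.4, 59.7, 77.8, 59.9 and 63.6 CPM in late_CC and 19.9, 25.9, 21.1, 26.4 and 22.9 CPM in early_CC. The mural groups had 16.6, 29.6, 25.3, 26.3 and 23.7 CPM in late_MGC and 24.2, 31.1, 28.9, 30.4 and 38.0 CPM in early_MGC. All late_CC libraries were above all early_CC libraries, and the interaction was 1.73 ± 0.23 (adjusted p = 2.3e-05). TCF7, its relative, had -0.90 ± 0.30 (adjusted p = 0.026), lost without early_CC 1 (-0.80) or without late_CC 4 (-0.82). SFRP1 had 3.15 ± 0.96 (adjusted p = 0.015), lost without late_CC 3 (2.33, adjusted p = 0.052). AXIN1 had 0.90 ± 0.29 (adjusted p = 0.020), lost in 5 of the 20 fits that left out 1 library and with length-corrected offsets (0.15).

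Genes of filopodia and actin protrusions, the machinery from which transzonal projections are built, were mixed. Of 23 tested, 3 had a positive interaction (BAIAP2L1, MYO10 and FMNL2) and 3 a negative one (ARPC2, EZR and PLS3), with a median of -0.02. Neither count exceeds the background of 17.5% positive and 16.7% negative. Without late_MGC 3 the count was 9 positive and 3 negative (background 22% and 18.2%), and with length-corrected offsets 2 positive and 5 negative (background 13.8% and 15.7%).

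MYO10 (chr20:56233771-56495596), an unconventional myosin found at filopodial tips, had 90.5, 91.6, 70.5, 103 and 72.1 CPM in late_CC and 28.1, 83.5, 76.6, 34.9 and 49.9 CPM in early_CC. In mural cells it had 13.01, 21.5, 28.1, 17.2 and 13.8 CPM in late_MGC and 32.0, 52.9, 39.4, 42.8 and 40.1 CPM in early_MGC. Late_MGC lay wholly below early_MGC, and in cumulus cells early_CC 2 and 3 reached the late_CC range. The interaction of MYO10 was 1.81 ± 0.35 (adjusted p = 5.5e-04), with a cumulus step of 0.67 ± 0.24 (adjusted p = 0.027) and a mural step of -1.13 ± 0.25 (adjusted p = 0.0030); it was 1.96 (adjusted p = 1.1e-04) without late_MGC 3 and shrank to 1.01 (adjusted p = 0.016) with length-corrected offsets. BAIAP2L1 (chr25:37655743-37735318), which bends the membrane at protrusions, had 34.9, 30.4, 24.02, 35.8 and 43.3 CPM in late_CC and 6.58, 6.38, 7.87, 15.2 and 8.39 CPM in early_CC. Mural levels were 7.13, 4.90, 10.2, 6.37 and 4.03 CPM in late_MGC and 3.46, 9.86, 6.29, 7.04 and 14.6 CPM in early_MGC. The cumulus groups were apart, the mural groups overlapped, and the interaction was 2.19 ± 0.43 (adjusted p = 6.5e-04), or 2.03 (adjusted p = 0.0015) with length-corrected offsets.

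ARPC2, a subunit of the Arp2/3 complex that branches actin, had 144, 128, 100.3, 126 and 127 CPM in late_CC and 346, 244, 239.6, 262 and 353 CPM in early_CC. Late_MGC 3 stood out among its mural levels, 229, 158, 707, 196 and 207.8 CPM in late_MGC and 221, 186, 211, 135 and 240.0 CPM in early_MGC. The interaction was -1.81 ± 0.41 (adjusted p = 0.0019), and -1.29 (adjusted p = 4.1e-04) without late_MGC 3. FMNL2, a formin, had 0.81 ± 0.26 (adjusted p = 0.020), lost in 4 of the 20 fits that left out 1 library and with length-corrected offsets (0.14). EZR, which ties actin to the membrane, had -0.77 ± 0.27 (adjusted p = 0.031), lost in 4 of those fits. PLS3, an actin bundler, had -0.70 ± 0.27 (adjusted p = 0.049), lost in 9 of them, one being that without late_MGC 3 (-0.58, adjusted p = 0.080). FSCN1, the bundler of filopodial actin, was called only without late_MGC 3: its interaction was -0.71 ± 1.35 (adjusted p = 0.72) with all 20 libraries and 2.68 (adjusted p = 0.0059) without that one, which held 30.2 CPM where the other late_MGC libraries held at most 1.08 and early_MGC at most 5.55 CPM. DAAM1, a formin, likewise had 0.95 ± 0.40 (adjusted p = 0.072) with all 20 and 1.43 (adjusted p = 4.1e-04) without it. With length-corrected offsets DAAM1 had 0.30 (adjusted p = 0.53) with all 20 and 0.69 (adjusted p = 0.017) without late_MGC 3.

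Junction genes gave 3 positive members (NECTIN3, AFDN and CTNND1) and 2 negative ones (GJA5 and GJC1) of 15 tested, near the background 17.5% and 16.7%, with a median of 0.27. Without late_MGC 3 they gave 4 and 2 (background 22% and 18.2%), and with length-corrected offsets 1 and 2 (background 13.8% and 15.7%). GJA1, the main connexin of granulosa cells, did not pass the test (-0.20 ± 0.40, adjusted p = 0.73), with 663 ± 70.9 CPM in late_CC, 458 ± 90.7 in early_CC, 949 ± 356 in late_MGC and 568 ± 192 in early_MGC (SD, n = 5 each). GJA5, connexin 40, had 0, 0.197, 0.138, 0 and 0 CPM in late_CC and 15.7, 13.3, 6.80, 6.81 and 11.9 CPM in early_CC. Its mural levels were 0.139, 1.09, 0.857, 0.661 and 0.0949 CPM in late_MGC and 8.83, 6.29, 3.95, 1.19 and 4.19 CPM in early_MGC. GJA5 fell in both compartments with no overlap between stages, by more in cumulus cells, and its interaction was -4.0001 ± 0.98 (adjusted p = 0.0037). GJC1, connexin 45, had -1.53 ± 0.42 (adjusted p = 0.0074), and NECTIN3, an adhesion molecule, 1.28 ± 0.30 (adjusted p = 0.0029). AFDN (0.90 ± 0.25, adjusted p = 0.0092) and CTNND1 (0.70 ± 0.22, adjusted p = 0.018) were not called with length-corrected offsets (0.04 and -0.01), and CTNND1 was also lost in 5 of the 20 fits that left out 1 library. Neither CDH1 (-1.99 ± 1.02, adjusted p = 0.14) nor CDH2 (0.61 ± 0.36, adjusted p = 0.20) passed. CDH2 did without late_MGC 3 (0.85, adjusted p = 0.043), but not when lengths were corrected as well (0.21, adjusted p = 0.59). GJA4, connexin 37, had -3.96 ± 1.58 (adjusted p = 0.059), and -0.45 (adjusted p = 0.75) without late_MGC 3.

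Of 16 genes of granulosa differentiation and hormones, 3 had a positive interaction (GATA6, INHBB and GATA4) and 0 a negative one (background 17.5% and 16.7%), with a median of 0.40; 3 positive is near the background. The list gave 3 and 1 without late_MGC 3 (background 22% and 18.2%) and 1 and 0 with length-corrected offsets (background 13.8% and 15.7%). GATA6 (chr24:34163203-34192624), a transcription factor of the gonads, had 18.2, 33.7, 24.9, 33.5 and 41.2 CPM in late_CC and 6.67, 6.63, 9.33, 5.99 and 12.3 CPM in early_CC. In mural cells GATA6 had 8.03, 13.8, 7.55, 9.79 and 12.6 CPM in late_MGC and 8.09, 16.6, 6.05, 13.5 and 8.203 CPM in early_MGC. Late_CC was wholly above early_CC while the mural groups overlapped; the interaction was 1.88 ± 0.40 (adjusted p = 0.0013), and 2.19 (adjusted p = 7.5e-04) with length-corrected offsets. INHBB, the beta B subunit of inhibins and activins, rose in both compartments, with 1023, 1383, 383, 1625 and 1386 CPM in late_CC and 82.2, 99.1, 32.7, 56.9 and 67.7 CPM in early_CC. It had 152, 289, 114, 308 and 353 CPM in late_MGC and 58.7, 98.5, 49.3, 28.8 and 16.8 CPM in early_MGC. Stages did not overlap in either compartment. The rise was 4.10 ± 0.48 (adjusted p = 2.4e-06) in cumulus and 2.32 ± 0.45 (adjusted p = 0.0012) in mural cells. The interaction of 1.78 ± 0.61 (adjusted p = 0.028) was lost with length-corrected offsets (1.496, adjusted p = 0.070) and without early_MGC 1, early_MGC 2, late_CC 4 or late_MGC 1, whose removal left 1.36 to 1.66. GATA4 had 0.94 ± 0.33 (adjusted p = 0.030), called in 10 of the 20 fits that left out 1 library and not with length-corrected offsets (0.53).

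The hormone genes FSHR (-0.05 ± 0.69, adjusted p = 0.97), AMH (0.86 ± 0.84, adjusted p = 0.46), CYP19A1 (1.17 ± 0.97, adjusted p = 0.37) and the AMH receptor AMHR2 (0.93 ± 0.64, adjusted p = 0.28) did not pass the test. AMHR2 fell in both compartments, by 2.38 in cumulus cells (adjusted p = 3.0e-04) and by 3.31 in mural cells (adjusted p = 8.7e-05). GREM1, a BMP antagonist, likewise fell in both, by 2.94 in cumulus and 2.38 in mural cells, with an interaction of -0.56 ± 0.33 (adjusted p = 0.20).

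Steroidogenesis gave 3 negative interactions of 12 (HSD3B1, TSPO and FDX1) and 0 positive (background 16.7% and 17.5%), with a median of -0.78. Without late_MGC 3 there were 4 negative and 0 positive (background 18.2% and 22%), and with length-corrected offsets 1 and 0 (background 15.7% and 13.8%). HSD3B1 (chr3:23706733-23717051), which turns pregnenolone into progesterone, had 211, 218, 39.5, 200.4 and 187 CPM in late_CC and 69.4, 45.3, 46.3, 128 and 48.4 CPM in early_CC. In mural cells HSD3B1 had 104, 76.0, 306, 93.4 and 126 CPM in late_MGC and 16.4, 6.92, 16.7, 8.59 and 8.95 CPM in early_MGC. Late_MGC was wholly above early_MGC, while late_CC 3 was below early_CC. The mural rise of 3.61 ± 0.49 (adjusted p = 5.1e-05) exceeded the cumulus rise of 1.34 ± 0.44 (adjusted p = 0.018), for an interaction of -2.27 ± 0.63 (adjusted p = 0.0091), or -1.85 (adjusted p = 0.015) without late_MGC 3. CYP11A1, which cleaves the side chain of cholesterol, rose in both compartments (1.93 and 3.21) and its interaction of -1.28 ± 0.54 was not called (adjusted p = 0.072). TSPO moved with late_MGC 3: its interaction was -2.49 ± 0.80 (adjusted p = 0.022) with that library and -1.21 (adjusted p = 0.034) without it, and neither TSPO (-1.98, adjusted p = 0.074) nor FDX1 (-0.74 ± 0.23, adjusted p = 0.018, then -0.44, adjusted p = 0.078) was called with length-corrected offsets. For STAR, the cholesterol carrier of mitochondria, late_MGC 3 held 123 CPM and no other antral library more than 5.44; its interaction was -2.44 ± 1.202 (adjusted p = 0.13), and 0.57 (adjusted p = 0.30) without late_MGC 3.

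Cholesterol synthesis had 4 negative members (EBP, FDPS, PMVK and NSDHL) and 0 positive of 21 (background 16.7% and 17.5%), with a median of -0.61; the negative count is near the background. There were 7 negative and 1 positive without late_MGC 3 (background 18.2% and 22%) and 3 and 0 with length-corrected offsets (background 15.7% and 13.8%). FDPS (chr3:15311058-15320377), which makes farnesyl diphosphate, had 106, 62.8, 32.0, 102 and 97.6 CPM in late_CC and 237, 238, 211, 186 and 314 CPM in early_CC. Mural levels of FDPS were 264, 135, 90.4, 198 and 222 CPM in late_MGC and 156, 106, 119, 57.2 and 107 CPM in early_MGC. Cumulus groups did not overlap. The interaction was -2.39 ± 0.45 (adjusted p = 4.8e-04), and -2.57 (adjusted p = 4.3e-05) without late_MGC 3. EBP, a sterol isomerase, had 32.3, 18.6, 9.83, 26.6 and 25.1 CPM in late_CC and 109, 97.7, 72.4, 91.4 and 132 CPM in early_CC, and an interaction of -2.77 ± 0.50 (adjusted p = 3.7e-04). NSDHL had -1.31 ± 0.33 (adjusted p = 0.0045) and PMVK -1.35 ± 0.44 (adjusted p = 0.021), PMVK without a call when lengths were corrected (-0.85).

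Cumulus expansion and EGF signalling gave 3 positive genes (HAS2, PTGES and EGFR) and 1 negative (ADAMTS1) of 11 (background 17.5% and 16.7%), with a median of 0.84. The counts were 5 and 0 without late_MGC 3 (background 22% and 18.2%) and 2 and 2 with length-corrected offsets (background 13.8% and 15.7%), where the median was -0.03. PTGES (chr11:100121985-100133453), a prostaglandin E synthase, had 79.0, 71.3, 12.3, 45.1 and 50.3 CPM in late_CC and 133, 88.0, 78.9, 123 and 126 CPM in early_CC. In mural cells it had 5.01, 5.80, 0.321, 2.46 and 3.27 CPM in late_MGC and 59.9, 31.5, 46.7, 28.9 and 39.9 CPM in early_MGC. Mural stages were far apart and cumulus stages touched at 1 library each. The cumulus step was -1.08 ± 0.48 (adjusted p = 0.069), the mural step -3.54 ± 0.53 (adjusted p = 1.5e-04), and the interaction 2.46 ± 0.69 (adjusted p = 0.0097), or 3.14 (adjusted p = 8.4e-04) with length-corrected offsets. EGFR, the receptor of the EGF-like ligands, had 34.8, 50.3, 39.1, 57.3 and 53.6 CPM in late_CC and 12.2, 11.5, 19.2, 13.4 and 17.1 CPM in early_CC. In mural cells EGFR had 9.04, 16.9, 7.02, 14.2 and 16.98 CPM in late_MGC and 9.51, 9.58, 4.97, 16.9 and 12.9 CPM in early_MGC. Its cumulus groups were apart; the interaction of 1.40 ± 0.41 (adjusted p = 0.011) was not called with length-corrected offsets (0.90, adjusted p = 0.088). HAS2, the hyaluronan synthase of expanding cumulus, rested on late_CC 3 with 11.005 CPM against at most 0.986 CPM in the other late_CC libraries: its interaction of 5.53 ± 1.86 (adjusted p = 0.026) was 3.03 (adjusted p = 0.16) without that library, 4.74 (adjusted p = 0.062) without early_MGC 4 and 9.88 (adjusted p = 0.0025) without late_MGC 3, the 1 late_MGC library with a count. The fitted 9.88 of HAS2 thus rests on a late_MGC group with no count and is no bound. ADAMTS1 (-2.50 ± 0.95, adjusted p = 0.049) was not called without late_MGC 3 (-0.78) and was called in 5 of the 20 fits that left out 1 library.

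In the BMP and TGF-beta list, 3 of 16 genes were positive (TGFBR3, ACVR2B and SMAD5) and 1 was negative (ID1), the positive count being near the background 17.5% and 16.7%, with a median of 0.13. Without late_MGC 3 the list had 6 and 1 (background 22% and 18.2%), and with length-corrected offsets 0 and 2 (background 13.8% and 15.7%). ID1 (chr13:61179938-61182003), a direct target of BMP signalling, had 1.03, 0.590, 0.831, 1.39 and 0.634 CPM in late_CC and 38.2, 43.4, 29.5, 41.7 and 62.5 CPM in early_CC. In mural cells it had 25.7, 3.81, 15.3, 1.56 and 3.61 CPM in late_MGC and 54.5, 50.8, 58.4, 25.4 and 188 CPM in early_MGC. ID1 fell in both compartments, with no overlap in cumulus cells and with late_MGC 1 just above the lowest early_MGC library. The fall was -5.56 in cumulus and -2.73 in mural cells, and the interaction -2.84 ± 0.88 (adjusted p = 0.018), or -2.71 (adjusted p = 0.030) without late_MGC 3. The receptors TGFBR3 (1.89 ± 0.54, adjusted p = 0.010) and ACVR2B (1.32 ± 0.46, adjusted p = 0.032) and the mediator SMAD5 (0.86 ± 0.21, adjusted p = 0.0040) had no call with length-corrected offsets (1.30, 1.01 and 0.07), and ACVR2B was called in 12 of the 20 fits that left out 1 library.

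Among 11 genes of the insulin-like growth factor system, PAPPA, a protease that frees the growth factor from its binding proteins, was negative at -4.17 ± 0.91 (adjusted p = 0.0015), at low levels of at most 0.197 CPM in late_CC, 1.37 in early_CC, 1.33 in late_MGC and 0.477 in early_MGC. IGFBP2 was positive at 3.64 ± 1.23 (adjusted p = 0.027), and had 1.08 (adjusted p = 0.33) without late_CC 3, which held 9.07 CPM against at most 0.564 in the other late_CC libraries; its call was lost in 4 of the 20 fits that left out 1 library. These were the called members (background 17.5% and 16.7%), the list's median was 0.38, and the count was 3 and 1 without late_MGC 3 (background 22% and 18.2%) and 1 and 1 with length-corrected offsets (background 13.8% and 15.7%). Of 15 basement membrane and matrix genes, COL4A3 (1.73 ± 0.46, adjusted p = 0.0063) and LAMB2 (0.93 ± 0.34, adjusted p = 0.038) were positive and SPARC (-2.12 ± 0.74, adjusted p = 0.033) and LAMC1 (-0.53 ± 0.20, adjusted p = 0.050) negative (background 17.5% and 16.7%), with a median of -0.33; without late_MGC 3 the count was 3 and 1 (background 22% and 18.2%), and with length-corrected offsets 1 and 4 (background 13.8% and 15.7%). Only COL4A3, a chain of type IV collagen, kept its call in all 20 fits that left out 1 library, and it had 1.13 with length-corrected offsets. LAMB2 lost its call in 14 of those fits and with length-corrected offsets (0.27). SPARC was -0.65 (adjusted p = 0.043) without late_MGC 3 and lost its call without early_CC 1 (-1.97) or early_MGC 5 (-2.08). LAMC1 lost its call in 12 of those 20 fits, one being that without late_MGC 3 (-0.44, adjusted p = 0.081), and had -1.37 with length-corrected offsets.

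Opposite steps, called in both compartments and in both fits, were found for 393 genes, 178 up in cumulus and down in mural cells and 215 the reverse. The 8 with the largest smaller step were all of the first kind: KCTD16, SHANK2, RASGRP1, GZF1, SLC5A8, LOC100139670 and the small nucleolar RNA genes LOC112447192 and LOC112446500. SLC5A8 (chr5:65045132-65111413), a sodium-coupled carrier of lactate and short-chain fatty acids, had 10.6, 21.2, 1.59, 18.9 and 15.3 CPM in late_CC and 2.61, 2.40, 4.15, 3.27 and 2.97 CPM in early_CC. Mural cells had 1.95, 1.87, 0.429, 2.34 and 1.38 CPM of it in late_MGC and 4.94, 6.92, 5.15, 3.10 and 11.6 CPM in early_MGC. Late_MGC lay below early_MGC throughout, and all late_CC libraries but late_CC 3 lay above early_CC. Its cumulus step was 2.12 ± 0.48 (adjusted p = 0.0010), its mural step -1.88 ± 0.48 (adjusted p = 0.0094) and its interaction 3.996 ± 0.68 (adjusted p = 1.9e-04).

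SHANK2, a scaffold protein first known from synapses, had 1.43, 8.65, 2.91, 4.83 and 5.21 CPM in late_CC and 0.504, 0.306, 0.684, 0.431 and 0.402 CPM in early_CC. It had 0.209, 0.363, 0.107, 0.120 and 0 CPM in late_MGC and 1.17, 2.31, 0.2996, 0.477 and 1.44 CPM in early_MGC. The stages did not overlap in cumulus cells and overlapped at 1 library in mural cells. The interaction of SHANK2 was 5.99 ± 0.90 (adjusted p = 6.9e-05). GZF1, a zinc finger repressor, had 3.72, 3.68, 2.21, 6.71 and 7.19 CPM in late_CC and 0.850, 1.53, 2.14, 0.172 and 0.803 CPM in early_CC. It had 0.278, 0.0604, 0.536, 0.361 and 0.285 CPM in late_MGC and 0.864, 0.909, 1.32, 1.67 and 1.77 CPM in early_MGC, with no overlap between stages in either compartment and an interaction of 4.13 ± 0.77 (adjusted p = 4.1e-04). RASGRP1, an activator of Ras, had 5.16 ± 1.19 (adjusted p = 0.0023). KCTD16 was at 0 in all 5 late_MGC libraries and reached 2.40 CPM in late_CC, 0.171 in early_CC and 4.42 in early_MGC, so its fitted interaction is no bound. LOC100139670 was at or under 0.209 CPM in late_MGC, where late_MGC 1 stood apart, and 0.204 CPM in early_CC. Its fitted interaction of 7.95 ± 1.85 (adjusted p = 0.0025) rests on a few counts in these 2 groups. With 1 library left out in turn, that value ran from 6.38 to 11.2.

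Among genes with a group mean of at least 10 CPM, the most negative interactions that held with and without late_MGC 3 included genes that were nearly lost from late cumulus cells. CD99 (chrX:138754709-138785187), a surface glycoprotein, had 1.26, 0.491, 2.98, 0.785 and 1.97 CPM in late_CC and 84.9, 54.0, 58.8, 88.1 and 101 CPM in early_CC. In mural cells CD99 had 24.9, 14.4, 198, 13.3 and 13.5 CPM in late_MGC and 46.9, 37.2, 51.3, 32.6 and 90.4 CPM in early_MGC. Late_MGC 3 alone lay above early_MGC, and the other late_MGC libraries lay below it. The interaction was -5.71 ± 0.98 (adjusted p = 3.1e-04), and -4.19 (adjusted p = 7.1e-06) without late_MGC 3, where the mural step was -1.51 (adjusted p = 0.0043).

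GRB7 (chr19:40104363-40113096), an adaptor of receptor tyrosine kinases, had 0, 0, 0.138, 0.121 and 0 CPM in late_CC and 8.31, 10.6, 16.3, 14.995 and 11.7 CPM in early_CC. Its mural levels were 0.800, 1.03, 0.321, 0.721 and 0.285 CPM in late_MGC and 6.42, 6.64, 4.43, 6.32 and 6.29 CPM in early_MGC. It fell in both compartments with no overlap, and the interaction was -4.59 ± 0.73 (adjusted p = 1.1e-04). SDF2L1, a protein of the endoplasmic reticulum, had 5.49, 1.52, 5.19, 3.02 and 3.52 CPM in late_CC and 26.9, 34.2, 25.9, 30.7 and 34.1 CPM in early_CC, at an interaction of -3.78 ± 0.42 (adjusted p = 9.9e-06). ANXA2, annexin A2, had 15.8 to 24.5 CPM in late_CC and 126 to 262 CPM in early_CC; its interaction was -3.82 ± 0.71 (adjusted p = 5.4e-04), and -2.69 (adjusted p = 1.1e-05) without late_MGC 3, which held 524 CPM.

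TMEM35B (-3.81 ± 0.57, adjusted p = 7.5e-05) and CISD3 (-3.90 ± 0.75, adjusted p = 7.3e-04) also fell in late_CC, CISD3 at -2.63 without late_MGC 3. PAG11 had no count in any late_CC library, so that its fitted interaction is no bound, and GSTA5, which rose in late_MGC (3.26 ± 0.76, adjusted p = 0.0057), had -4.86 ± 1.04 (adjusted p = 0.0017); both belong to families of near-identical genes and may share reads with them. ATP6AP1L (-5.21 ± 1.43, adjusted p = 0.0090, then -1.98, adjusted p = 0.031) and CD109 (-4.003 ± 1.203, adjusted p = 0.015, then -2.27, adjusted p = 0.047) were smaller by over 1.5 times without late_MGC 3. On the positive side, SERTAD4 had 2.69, 15.6, 37.8, 2.11 and 0.141 CPM in late_CC and at most 0.561 CPM in early_CC, 1.61 in late_MGC and 2.28 in early_MGC, with an interaction of 6.32 ± 1.63 (adjusted p = 0.0059). CALB1, a calcium buffer, had 5.04 ± 1.78 (adjusted p = 0.035), 7.96 without late_MGC 3, and was called in 9 of the 20 fits that left out 1 library. No other late_MGC library held a CALB1 count, so the fitted 7.96 is no bound.

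Small non-coding RNA genes filled much of the positive end. Of 57 small nuclear RNA genes tested, 39 had a positive interaction and 0 a negative one (background 17.5% and 16.7%). Without late_MGC 3 the count was 43 and 0 of 62 (background 22% and 18.2%), and with length-corrected offsets 33 and 0 of 57 (background 13.8% and 15.7%). Summed over all such genes in the table, they made 347 to 1799 CPM in late_CC, 71.7 to 169.8 in early_CC, 137 to 332 in late_MGC and 124.8 to 367 in early_MGC, so that late_CC was above early_CC in every library. Small nucleolar RNA genes gave 39 positive and 3 negative of 140 (background 17.5% and 16.7%) with a median of 1.27, 42 and 4 of 145 without late_MGC 3, and 24 and 8 with a median of 0.53 with length-corrected offsets (background 13.8% and 15.7%). One of them, LOC112447192 (chr6:68404963-68405084), had 3.83, 5.26, 8.17, 3.93 and 4.58 CPM in late_CC and 0.378, 0.510, 0.342, 0.603 and 0.883 CPM in early_CC. It had 1.22, 2.12, 3.75, 1.56 and 2.42 CPM in late_MGC and 14.1, 7.27, 24.6, 56.0 and 2.38 CPM in early_MGC. The cumulus stages were apart, the mural stages overlapped at 1 library, early_MGC 5, and the interaction was 6.62 ± 0.90 (adjusted p = 3.8e-05). LOC112444563 had 6.36 ± 0.88 (adjusted p = 4.0e-05), LOC112446500 5.29 ± 1.03 (adjusted p = 6.3e-04), the small nuclear RNA genes LOC112442855 6.78 ± 1.21 (adjusted p = 4.4e-04) and LOC112442849 6.22 ± 1.02 (adjusted p = 1.9e-04), and the mitochondrial tRNA gene KEH36_t15 6.12 ± 0.99 (adjusted p = 1.9e-04). LOC112442855 had 2.21 CPM in late_CC 2, against 33.9 to 174.7 CPM in the other late_CC libraries and at most 2.89 CPM in any other antral group. Its call was lost in 3 of the 32 settings. Small non-coding RNA genes are short and often present in copies that may share reads. What part that plays was not tested. Pseudogenes gave 5 positive and 50 negative of 204 with all 20 libraries (background 17.5% and 16.7%), 5 and 58 of 206 without late_MGC 3, and 17 and 29 with length-corrected offsets (background 13.8% and 15.7%).

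The library late_MGC 3 decided some of the largest values. CSRP3, a muscle LIM protein, had 0.452, 0.242, 1971, 3.18 and 0.522 CPM in late_MGC, at most 3.81 CPM in late_CC, 8.94 in early_CC and 3.52 in early_MGC. Its interaction was -10.62 ± 2.92 (adjusted p = 0.0099) with all 20 libraries and -2.18 (adjusted p = 0.26) without late_MGC 3. CLDN1 (-9.17 ± 2.61, adjusted p = 0.012, then -1.11, adjusted p = 0.57), S100A4 (-7.21 ± 2.11, adjusted p = 0.013, then -2.17, adjusted p = 0.16), CRYAB (-7.02 ± 2.62, adjusted p = 0.046, then -0.72, adjusted p = 0.75) and DCN (-6.05 ± 1.85, adjusted p = 0.018, then -1.92, adjusted p = 0.15) likewise lost their calls, and CRYAB lost it in 14 of the 20 fits that left out 1 library and with length-corrected offsets (-6.70, adjusted p = 0.065).

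In the other direction, NDRG1 (chr14:8073208-8129604), a gene induced by hypoxia and differentiation, had 56.7, 62.9, 28.4, 72.3 and 57.4 CPM in late_CC and 3.65, 4.24, 1.97, 8.96 and 3.73 CPM in early_CC. In mural cells NDRG1 had 0.556, 0.242, 52.6, 0.481 and 0.285 CPM in late_MGC and 3.33, 4.13, 2.40, 0.716 and 4.75 CPM in early_MGC. Without late_MGC 3, late_MGC is wholly below early_MGC and late_CC wholly above early_CC. The interaction was 1.85 ± 1.52 (adjusted p = 0.37) with that library and 6.43 (adjusted p = 6.3e-07) without it. PARM1 had 31.4, 30.9, 83.6, 35.9 and 31.5 CPM in late_CC and 4.25, 1.48, 6.37, 3.92 and 1.57 CPM in early_CC, with 2.46 CPM in late_MGC 3 and at most 1.12 CPM in any other mural library. Its interaction was 3.38 ± 1.34 (adjusted p = 0.059) with late_MGC 3, 3.93 (adjusted p = 0.045) with length-corrected offsets and 7.36 (adjusted p = 7.0e-05) without late_MGC 3. PPP1R3C (3.03 ± 2.36, adjusted p = 0.34, then 9.16, adjusted p = 0.021) and SPON2 (-2.22 ± 2.76, adjusted p = 0.57, then 8.56, adjusted p = 0.0070) were further cases, SPON2 with a change of sign. The other late_MGC libraries held no count of either gene, so the fitted values without late_MGC 3 are no bound.

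**Figure D5:**
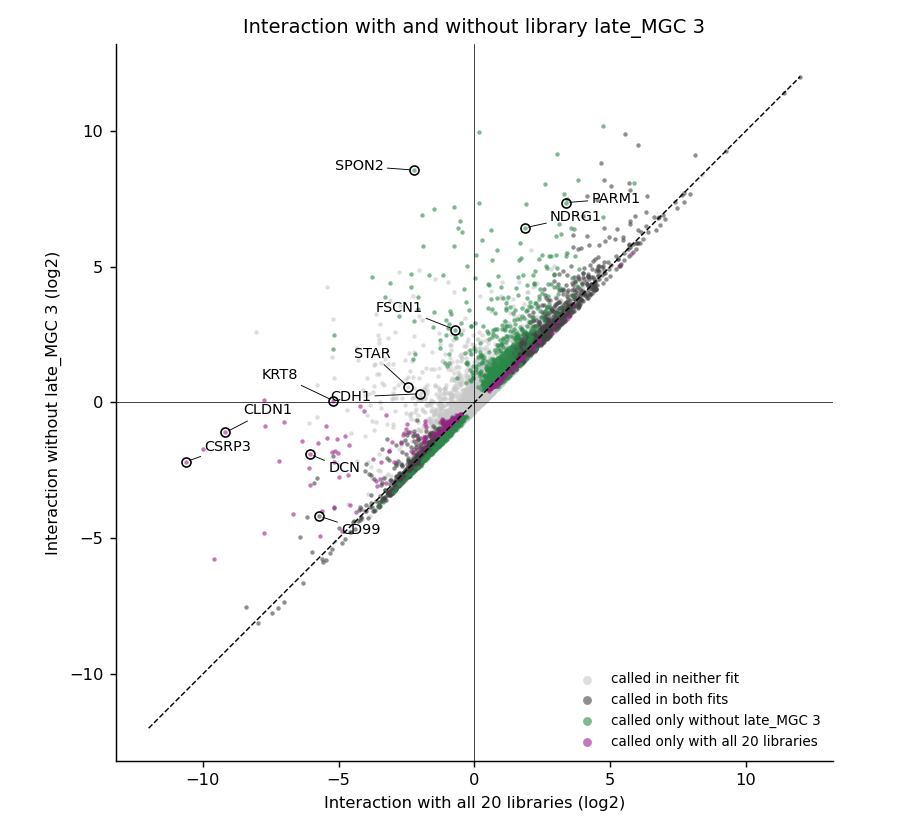
Interaction of each gene with all 20 libraries (x axis) and without late_MGC 3 (y axis), on the log2 scale, coloured by the fit in which it was called; 1 gene beyond 12 is drawn at the edge and the dashed line marks equal values. Genes such as CSRP3 and CLDN1 lie at strongly negative values only with the library, NDRG1, PARM1 and SPON2 lie high only without it, and CD99 stays negative in both.

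Markers of other cells moved with some of these groups. Theca and stroma markers gave 3 negative interactions of 9 (DCN, LUM and POSTN, background 16.7%), and 1 negative and 2 positive without late_MGC 3 (background 18.2% and 22%); POSTN kept its sign and call (-2.89 ± 0.83, adjusted p = 0.012, then -1.57, adjusted p = 0.011), LUM did not (-5.45 ± 1.82, adjusted p = 0.028, then -0.86, adjusted p = 0.49, and also lost without early_CC 1 at -4.72). With INSL3, these markers summed to 218 to 699 CPM in late_CC, 202 to 791 in early_CC, 272 to 2727 in late_MGC and 122 to 327 in early_MGC. INSL3 made most of the sum in all late libraries but late_CC 3 and late_MGC 3. Summed without INSL3, they made 102 to 191 CPM in late_CC, 83.7 to 716 in early_CC, 79.0 to 2725 in late_MGC and 52.5 to 172 in early_MGC. Late_MGC libraries other than late_MGC 3 then had at most 90.1 CPM. The medians of late_CC and early_CC were 642 and 361 CPM with INSL3 and 159 and 256 CPM without it. Surface epithelium markers gave 1 negative and 0 positive of 5 tested (background 16.7% and 17.5%), and 0 negative and 1 positive without late_MGC 3 (background 18.2% and 22%). The negative one was KRT8, a keratin (-5.20 ± 1.75, adjusted p = 0.029). KRT8 had 0.06 without late_MGC 3, its call also being lost without early_MGC 5 (-5.02), while KRT7 was at 0 in every antral library. The 9 blood cell markers summed to 5.19 to 198.7 CPM in late_CC, 1.94 to 3.94 in early_CC, 0.721 to 1.85 in late_MGC and 0.899 to 7.40 in early_MGC, and HBB, the beta globin of adult red cells, was at 0 throughout.

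HBA1, a further globin gene, is not among the blood cell markers summed above, while HBZ is. HBA1 (chr25:219512-220318) had 16.5, 23.5, 0.692, 10.03 and 12.3 CPM in late_CC and 0, 0.0510, 0, 0 and 0.0402 CPM in early_CC. In mural cells HBA1 had 0.0348, 0, 0.268, 0 and 0.0949 CPM in late_MGC and 0.123, 0.0699, 0, 0 and 0 CPM in early_MGC. Every late_CC library was above every other antral library; the fitted interaction was 8.12 ± 2.16 (adjusted p = 0.0064), lost without early_MGC 1 (7.07, adjusted p = 0.11), and rests on a few counts in the other groups. HBZ had 5.76 ± 1.98 (adjusted p = 0.031), lost without late_MGC 3 (5.45, adjusted p = 0.061) and without early_MGC 1 or early_MGC 2. Globin genes are near-identical copies and may share reads. Endothelial markers gave 1 positive and 0 negative of 4 tested (TEK, 2.01 ± 0.77, adjusted p = 0.048), near the background of 17.5% and 16.7%. Without late_MGC 3 the count was again 1 and 0 (background 22% and 18.2%). TEK was called in 4 of the 20 fits that left out 1 library and not with length-corrected offsets. Endothelial markers summed to 4.02 to 11.4 CPM in late_CC, 11.1 to 25.97 in early_CC, 2.09 to 9.59 in late_MGC and 23.3 to 44.7 in early_MGC. Oocyte markers summed to 4.91 to 19.2 CPM in late_CC, 7.41 to 26.1 in early_CC, 2.34 to 4.17 in late_MGC and 7.88 to 13.5 in early_MGC, with BMP15, FIGLA and KPNA7 at 0 and OOEP the 1 member tested (1.44 ± 0.53, adjusted p = 0.042, called in 7 of the 20 fits that left out 1 library and at 1.30, adjusted p = 0.055 without late_MGC 3). What part other cells take in any interaction above was not tested.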

How the data were processed

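RNA of bovine granulosa cells was sequenced after cDNA synthesis with a low-input kit, per the labels' protocols. The authors deposited whole-number read counts per gene, made with featureCounts 2.0.0 on exons of the Ensembl annotation of ARS-UCD1.2 with no strand option, per the file headers; fastp 0.20.0, HISAT2 2.1.0 and SAMtools 1.10 stand before it in the submitters' processing notes. The deposited table also gives each gene's coordinates and its summed exon length, another value used for the length curves. Without strand, reads of a gene and of an overlapping or antisense partner cannot be told apart, and near-identical copies may share reads. One column of undetermined reads (41567882 counts, 8.3% of all) and the 4 libraries of secondary follicles were left out, the secondary ones except in 1 alternative.

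Libraries of late_MGC are numbered by column order, the others as in the labels. Counts of 20 libraries (8379801 to 31762400 each) were scaled by TMM, filtered by filterByExpr and tested with edgeR 4.0.16 (quasi-likelihood, robust, R 4.3.3), 1 factor of 4 groups and contrasts for the interaction and both steps, with Benjamini-Hochberg adjustment over all genes and a threshold of 0.05. The biological coefficient of variation was 40.8%, and 34.3% without late_MGC 3. No 2 libraries of a group were alike within counting noise (chi-square at least 17.4 per degree of freedom in each of 46 pairs). In simulated counts of 13403 genes the test of the interaction made 53 calls, 1.89% of them false. Few genes were changed there, all in late_CC, so this share need not hold for the data.

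Symbols come from RefSeq genes of ARS-UCD2.0 whose span, at the coordinates of ARS-UCD1.2, overlapped by at least 0.5 of the union: 10737 of 12139 genes with a mean of 1 CPM or more (88.5%) got one, against 998 after a shift by 1000000 bases, so a single name can be wrong. A pathway list is described by its counts and median beside the shares and median of all genes, a marker list by its counts and summed level. The naming rule took the 12 most positive and 12 most negative interactions called with and without late_MGC 3, with a group mean of at least 10 CPM. It added 8 genes with opposite steps, up to 4 per list, 6 each called only with or only without late_MGC 3, and a set of ovarian genes. The rule selected 111 genes, of which 102 are given with values and the rest are not reported here. A further 20 of the 122 genes with values fall outside the rule and were chosen after their values were seen. Some members of the lists are counted but not reported here by name. Members and lists were chosen with earlier results of these data known. Alternatives were other scaling, filters, DESeq2 1.42.0, limma 3.58.1 (voom), all 24 libraries, libraries left out, the replicate block, and length-corrected offsets (a lowess curve, span 0.3, of each library's deviation on log10 exon length).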

Additional observations from a re-analysis of the deposited data

Results flagged for a closer look

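The change between stages differed between cumulus and mural cells in 4673 of 13668 genes by edgeR's quasi-likelihood test of the difference itself, as described above. Beyond that, single libraries stood apart from the 4 others of their group by Dixon's criterion, the gap to the nearest library divided by the whole range being above 0.71 for 5 samples. This was looked at in 488 groups of libraries, 4 for each named gene, and 79 of them (16.2%) held such a library. The named genes were chosen for large interactions, and some because leaving out late_MGC 3 changes their call. The criterion was applied to CPM as they stand, where a group with counts in 1 library alone passes at any level. For these reasons the share is not set against chance.

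The library late_MGC 3 accounts for 39 of the 79. For the genes named because that library changes their call, such as CSRP3, CLDN1 and NDRG1, this restates the choice. Above the other late_MGC libraries, it had DUSP1 at 291 CPM, JAG2 at 0.321 CPM, ARPC2 at 707 CPM, FSCN1 at 30.2 CPM, DAAM1 at 74.0 CPM, GJA4 at 11.5 CPM, CDH1 at 181 CPM, HSD3B1 at 306 CPM and TSPO at 276 CPM. It also had CYP11A1 at 249.6 CPM, STAR at 123 CPM, HAS2 at 0.643 CPM, ADAMTS1 at 56.1 CPM, SMAD5 at 124 CPM, SPARC at 2576 CPM, CALB1 at 0.214 CPM, CD99 at 198 CPM and ANXA2 at 524 CPM. Also high were ATP6AP1L at 82.8 CPM, CD109 at 41.4 CPM, CISD3 at 403 CPM, LOC112444563 at 4.82 CPM, RASGRP1 at 0.429 CPM, CSRP3 at 1971 CPM, CLDN1 at 175 CPM, S100A4 at 57.5 CPM and CRYAB at 74.8 CPM. The remaining high ones were DCN at 276 CPM, NDRG1 at 52.6 CPM, PARM1 at 2.46 CPM, PPP1R3C at 2.20 CPM, SPON2 at 58.2 CPM, LUM at 1621 CPM, POSTN at 588 CPM and KRT8 at 2829 CPM. Below the other late_MGC libraries, it had MCM2 at 17.7 CPM, MCM5 at 18.96 CPM, FSHR at 10.6 CPM and GSTA5 at 8.195 CPM.

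The library late_CC 3 accounts for 16. It was the highest of late_CC for MYC at 448 CPM, SFRP4 at 101 CPM, SFRP1 at 13.01 CPM, CDH2 at 609.6 CPM, HAS2 at 11.005 CPM, TGFBR3 at 52.7 CPM, IGFBP2 at 9.07 CPM, LOC112446500 at 2.28 CPM, CSRP3 at 3.81 CPM, CRYAB at 0.415 CPM and PARM1 at 83.6 CPM. It was the lowest for PDK1 at 28.8 CPM, PFKM at 7.06 CPM, HSD3B1 at 39.5 CPM, CALB1 at 0 CPM and PPP1R3C at 0.969 CPM.

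The others are spread over 12 libraries. Late_CC 1 was the lowest of its group for LAMB2 at 42.5 CPM. Late_CC 4 was the highest of its group for NR4A1 at 662 CPM. Early_CC 1 was the highest of its group for HAS2 at 0.630 CPM and DCN at 146 CPM. Early_CC 2 was the highest of its group for AXIN1 at 27.9 CPM. Early_CC 3 was the highest of its group for GATA4 at 169 CPM and LOC112442855 at 2.14 CPM. Early_CC 4 was the highest of its group for BAIAP2L1 at 15.2 CPM. Early_CC 4 was the lowest of its group for CCNA2 at 28.6 CPM. Early_CC 5 was the lowest of its group for CCNG1 at 99.5 CPM. Late_MGC 1 was the highest of its group for PCNA at 565 CPM, SLC16A3 at 5.32 CPM, PAG11 at 1.18 CPM and LOC100139670 at 0.209 CPM. Late_MGC 4 was the lowest of its group for SESN2 at 3.18 CPM. Early_MGC 3 was the lowest of its group for GRB7 at 4.43 CPM. Early_MGC 4 was the highest of its group for GJA4 at 4.77 CPM, HAS2 at 1.19 CPM, KEH36_t15 at 97.02 CPM and KCTD16 at 4.42 CPM. Early_MGC 4 was the lowest of its group for FDX1 at 26.9 CPM. Early_MGC 5 was the highest of its group for ZFP36 at 341 CPM, CDH1 at 11.8 CPM and ID1 at 188 CPM.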

How the results depend on the processing

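Of the 104 named genes with a called interaction, 57 kept direction and call in every alternative that tested them. Over 32 settings the 104 genes had 3286 values, of which 2915 kept direction and call, 365 kept the direction only and 6 had the opposite sign. Many of the 104 were chosen for being called with and without late_MGC 3, which fixes part of this. The count of called interactions ran between 4034 (length-corrected offsets) and 6119 (limma-voom with library weights) where a setting other than the filter on low counts changed, was 4301 with no filter and 3586 under a minimum mean of 10 CPM, and was 4062 to 5557 with 1 library left out. That of late_CC against early_CC was 5881 to 7265 with 1 library left out, and that of late_MGC against early_MGC 2045 to 3425. The mural count of 2624 was 3987 with DESeq2 and no late_MGC 3, 3979 with length-corrected offsets and no late_MGC 3, and 4444 with limma-voom with library weights; it was 1562 under a minimum mean of 10 CPM, where fewer genes were tested. The length-corrected offsets and the fits of other tools without late_MGC 3 were added after seeing the data.

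Signs turned as follows, and the cause was not tested. FSCN1 was positive at 2.69 with DESeq2 and no late_MGC 3, 2.49 with length-corrected offsets and no late_MGC 3, 1.53 with limma-voom, 2.72 with limma-voom and no late_MGC 3, 2.86 with library weights, 2.68 without late_MGC 3 and 2.19 without late_CC 3, late_MGC 3 and early_MGC 4 (the 3 libraries). SPON2 was positive in the same order at 7.67, 8.53, 5.75, 7.96, 7.195, 8.56 and 8.98. STAR was positive at 0.55 with DESeq2 and no late_MGC 3, 0.41 with length-corrected offsets and no late_MGC 3, 0.53 with limma-voom and no late_MGC 3, 0.33 with library weights, 0.57 without late_MGC 3 and 0.42 without the 3 libraries. CDH1 was positive at 0.31 with DESeq2 and no late_MGC 3, 0.35 with limma-voom and no late_MGC 3, 0.11 with library weights, 0.32 without late_MGC 3 and 0.062 without the 3 libraries. KRT8 was positive at 0.044 with DESeq2 and no late_MGC 3, 0.063 without late_MGC 3 and 0.20 without the 3 libraries, and LUM at 0.23 with library weights. FSHR was positive at 0.69 with limma-voom, 0.056 under a minimum mean of 10 CPM, and 0.036 to 0.068 without early_CC 1, late_MGC 1 or late_MGC 5. AFDN was -0.017 with length-corrected offsets and no late_MGC 3, and CTNND1 -0.0057 with length-corrected offsets. With 1 library left out in turn, the interaction ran from -1.05 to 2.68 for FSCN1, -2.30 to 0.32 for CDH1, -2.78 to 0.57 for STAR, -0.36 to 0.068 for FSHR, -3.43 to 8.56 for SPON2 and -5.55 to 0.063 for KRT8.

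No paired analysis was made for the interaction because the late_MGC columns carry no replicate number. They carry the letters A to E, which go with the numbers 1 to 5 in the other antral columns. A match by letter was not tested. Same-numbered libraries of the other 3 groups deviated from their group means with correlations of -0.22 to 0.43. Those of number 1 were 0.35 to 0.43, early_CC 2 with early_MGC 2 had 0.32, and the remaining ones were 0.07 or lower. Of 30 pairs of a library and another group, 8 correlated best with their own number. Whether the numbers mark shared animals or follicles cannot be told from these values. With the replicate block, late_CC against early_CC had 6725 genes called, and 6829 in the same 10 libraries without it. With 5 libraries a group the simulated test recovered 4% of interactions of 2-fold and 48% of 4-fold. The simulation changed a small part of the genes, in late_CC alone, with no outlying library and no trend with exon length. In the data 34.2% of genes were called, so these rates and the share of false calls describe the simulated setting only. Interactions of these sizes can still be missed.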
